A study of Mus musculus with 12 samples.

Results

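The genes described here are 8 genes of Cajal-Retzius cells and of reelin signalling, chosen by symbol from the 52634 genes of a count table of mouse dorsal hippocampus. They are Reln, the secreted ligand; Trp73, Lhx1, Lhx5 and Ndnf, which mark Cajal-Retzius cells; Vldlr and Lrp8, the reelin receptors; and Dab1, the adaptor inside the receiving cell. All 8 were among the 17631 genes with enough counts to be tested. Tissue came from mice at postnatal day 7, and each library was made from the dorsal hippocampi of 4 mice. The groups were SERTPyramid libraries labelled female, SERTPyramid libraries labelled male, SERTfl/fl libraries labelled female and SERTfl/fl libraries labelled male, with 3 libraries each. In SERTfl/fl mice, as the genotype name has it, both copies of the gene of the serotonin transporter SERT (Slc6a4) are flanked by loxP sites, and in SERTPyramid mice the gene is deleted in pyramidal neurons. The series title places the deletion in CA3 pyramidal neurons. No source used here names the Cre driver, the genetic background or the litters behind each pool. The p-values therefore measure how far these pooled libraries spread, which may be partly technical.

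Cajal-Retzius cells are early-born neurons that lie under the pia and along the hippocampal fissure, secrete reelin while the layers form, and mostly die during postnatal life. Reelin binds the receptors VLDLR and ApoER2 (the product of Lrp8) on migrating neurons, and the clustered receptors bring the adaptor Dab1 to Src-family kinases, which phosphorylate it. In the hippocampus this pathway is known for placing pyramidal and granule cells and for the layering of incoming entorhinal axons, and GABAergic interneurons take over as a source of reelin as Cajal-Retzius cells are lost.

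The receptors meet Dab1 at the same short stretch of their cytoplasmic tails, the docking motif Phe-Asp-Asn-Pro-any-Tyr, and the coding sequence around it is shown because the results below set the levels of these receptors beside that of Dab1. Both sequences run 5′ to 3′ on the plus strand of GRCm38, from transcripts of GENCODE M21, and the capitals mark the codons of the motif. The Vldlr stretch lies at chr19:27247919-27247978 and the Lrp8 stretch at chr4:107869040-107869099, each inside 1 coding exon.
Vldlr: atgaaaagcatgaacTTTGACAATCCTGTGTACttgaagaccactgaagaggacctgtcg
Lrp8: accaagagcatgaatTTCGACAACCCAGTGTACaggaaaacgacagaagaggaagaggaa
Of the 60 aligned bases 42 are identical, and of the 18 bases in capitals 15 are. The motif is followed by 36 codons before the stop in this Vldlr transcript and by 97 in this Lrp8 transcript.

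Library totals ran from 18747249 to 25522347 counts, so 3 counts, the upper limit that a count of 0 allows, equal 0.118 to 0.160 CPM, counts scaled to a common library total. Slc6a4 itself had 0 to 17 counts per library, which is too few to check the genotype labels. Xist and Y-linked transcripts matched the labelled sex in only 2 of 12 libraries, SERTfl/fl replicate 1 of both labelled sexes, and went against it in the other 10. Female and male therefore name labels below, and results are also given without those 2 SERTfl/fl libraries, as decided once their values were known. Defining genes of hippocampal excitatory neurons (Zbtb20, Prox1, Wfs1 and Grik4) were present in every library, and of 10 such genes 3 lay above 0 and 7 below in the averaged genotype contrast described below. Of the defining hypothalamic genes, where Lhx1 and Lhx5 are also expressed, Sim1 and Otp were too low to be tested and Foxb1 had 0 counts in all 12 libraries, the limit of a 0 being 3 counts per library. Of 7 hypothalamic genes listed 1 was tested, Nkx2-1. It was present in every library, at a mean of 1.82 CPM beside 2.32 for Lhx1 and 2.14 for Lhx5. Its averaged log2 fold change was 0.34 ± 0.16 (SE, edgeR adjusted p = 0.756), and its part in the values of Lhx1 and Lhx5 was not tested.

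Every gene of the group was detected in every library, at levels that spanned a wide range. Levels are compared per kilobase of exon, with the exons of all annotated transcripts of a gene merged. Merged exons can be longer than the transcripts expressed here, which were not resolved, so the order of genes is approximate. Reln, for example, has 15 annotated transcripts. The mean over 12 libraries was 22.2 ± 0.835 CPM per kb for Dab1, 21.96 ± 0.972 for Lrp8 and 19.6 ± 1.12 for Reln (SD, n = 12). Vldlr followed at 10.3 ± 0.415 CPM per kb, Ndnf at 6.63 ± 0.501 and Trp73 at 3.77 ± 0.423 (SD, n = 12). The LIM-homeodomain factor genes Lhx5 and Lhx1 were lowest, at 0.795 ± 0.101 and 0.571 ± 0.0949 CPM per kb (SD, n = 12). The ranges of Dab1, Lrp8 and Reln overlapped, as did those of Lhx5 and Lhx1, while the other neighbours in this order had separate ranges. Among 14627 protein-coding genes tested, 85.1% had a lower level per kb than Dab1, 83.1% lower than Reln, 42.2% lower than Trp73 and 12.7% lower than Lhx1.

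**Figure D1:**
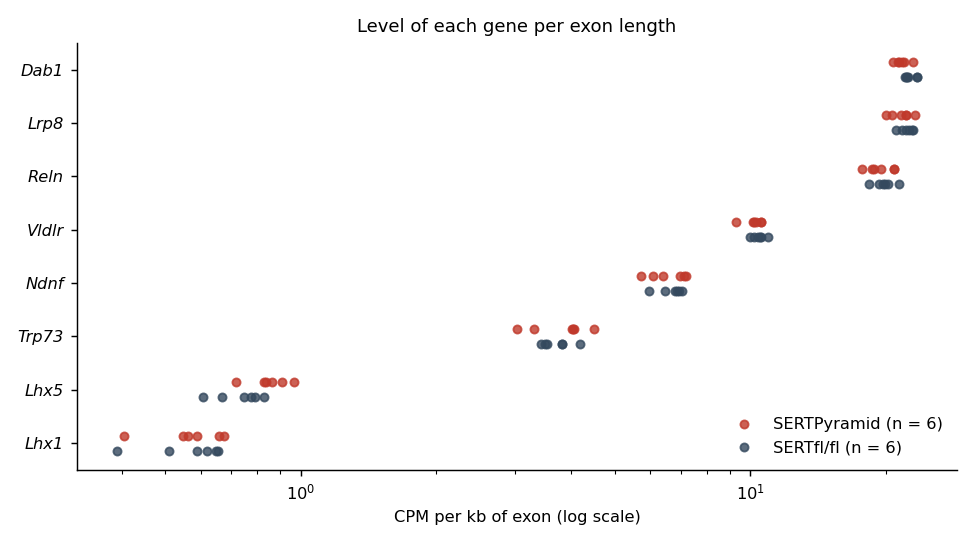
Level of each of the 8 genes per kilobase of exon, in CPM per kb on a log scale; each point is a library, with the 6 SERTPyramid libraries drawn above the 6 SERTfl/fl libraries. Dab1, Lrp8 and Reln lie close to 20 CPM per kb, Lhx1 and Lhx5 stay below 1 CPM per kb, and the points of the genotypes overlap for every gene.

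The genotypes did not differ in any of the 8 genes by edgeR's quasi-likelihood test at an adjusted p of 0.05, with the contrast averaged over labelled sex, within either labelled sex or as an interaction. At an unadjusted p under 0.05 the numbers were 0 of 8 averaged, 2 of 8 among libraries labelled female, 0 of 8 among libraries labelled male and 0 of 8 for the interaction. The 2 genes were Dab1, at 0.0385, and Lhx5, at 0.0477. DESeq2 and limma voom also called none of them, but DESeq2 gave no adjusted p for Lhx1 and Lhx5 among libraries labelled female, where its unadjusted p was 0.977 and 0.125. In the averaged contrast 5 of 8 lay below 0, as did 50.7% of all genes, and in no gene of the 8 were the 6 SERTPyramid libraries apart from the 6 SERTfl/fl libraries, as they were in 0.187% of all genes. Over all 17631 genes edgeR called 0.0% in each of the 4 contrasts, and 6.49%, 8.04%, 3.16% and 4.45% had an unadjusted p under 0.05 in the averaged, labelled-female, labelled-male and interaction contrasts. The intervals below therefore carry the result: they state how large a difference these libraries leave possible. In bulk tissue, fewer cells of a type and less RNA per cell cannot be told apart.

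**Figure D2:**
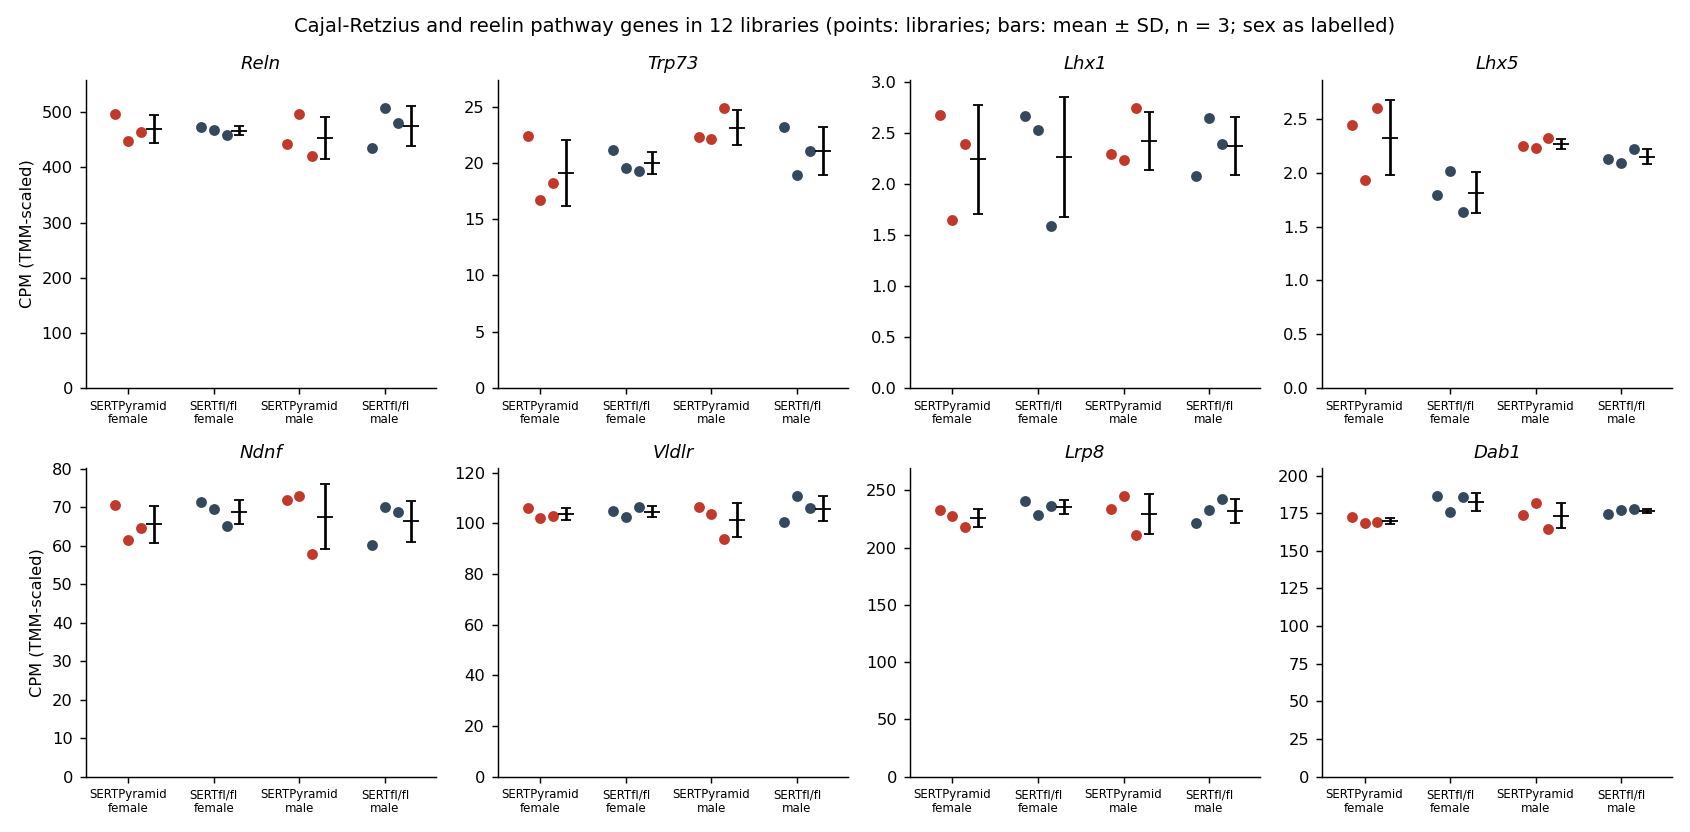
TMM-scaled CPM of the 8 genes in the 12 libraries, with SERTPyramid libraries in red and SERTfl/fl libraries in blue-grey, by labelled sex; points are libraries and bars the mean ± SD (n = 3). The groups overlap in every panel except Dab1 among libraries labelled female, where SERTPyramid is lower, and Lhx5 among libraries labelled male, where SERTPyramid is higher by a narrow margin.

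Reln encodes the ligand (chromosome 5, 21884454 to 22344702, minus strand). Reln had 497, 448.5 and 464 CPM in SERTPyramid libraries labelled female, against 474, 467.5 and 458 CPM in SERTfl/fl libraries labelled female. Among libraries labelled male it had 442, 497 and 421 CPM in SERTPyramid, against 436, 508 and 480 CPM in SERTfl/fl. The groups overlapped in both labelled sexes, and the lowest library was SERTPyramid replicate 3 labelled male. The log2 fold change averaged over labelled sex was -0.03 ± 0.05 (SE; 95% interval -0.12 to 0.07; edgeR adjusted p = 0.925), a fold between 0.918 and 1.05. Without SERTfl/fl replicate 1 of both labelled sexes it was -0.05 ± 0.05 (SE, edgeR adjusted p = 0.799). Of the exon bases of Reln, 1.04% overlap a predicted gene on the other strand, and the library kit does not mark strand.

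Trp73 encodes p73, a transcription factor that marks Cajal-Retzius cells born in the cortical hem (chromosome 4, 154056253 to 154140208, minus strand). Trp73 had 22.4, 16.7 and 18.3 CPM in SERTPyramid libraries labelled female, against 21.1, 19.5 and 19.3 CPM in SERTfl/fl libraries labelled female. For libraries labelled male the values were 22.3, 22.2 and 24.9 CPM in SERTPyramid, against 23.2, 18.9 and 21.1 CPM in SERTfl/fl. The groups overlapped in both labelled sexes, with SERTPyramid holding both the lowest library, replicate 2 labelled female, and the highest, replicate 3 labelled male. The averaged log2 fold change was 0.04 ± 0.07 (SE; 95% interval -0.10 to 0.19; edgeR adjusted p = 0.928). Among libraries labelled male it was 0.14 ± 0.10 (SE, edgeR adjusted p = 0.999), and 0.21 ± 0.10 (SE, adjusted p = 0.798) without SERTfl/fl replicate 1. The antisense gene Trp73os covers 5.06% of the exon bases of Trp73, and reads there cannot be assigned to a strand.

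Lhx1 and Lhx5 encode LIM-homeodomain transcription factors expressed in Cajal-Retzius cells (chromosome 11, 84518284 to 84525535, minus strand, and chromosome 5, 120431699 to 120441223, plus strand). Lhx5 had 63, 41 and 61 counts in SERTPyramid libraries labelled female, against 41, 47 and 37 counts in SERTfl/fl libraries labelled female, or 2.45, 1.93 and 2.60 CPM against 1.80, 2.01 and 1.63 CPM. Labelled-male libraries had 53, 51 and 55 Lhx5 counts in SERTPyramid, against 40, 53 and 53 counts in SERTfl/fl, or 2.25, 2.23 and 2.32 CPM against 2.13, 2.09 and 2.22 CPM. The labelled-male groups did not overlap, by a margin of less than 1 count, and 6.93% of all genes tested had groups that did not overlap in that comparison, 3.67% with SERTPyramid higher. The labelled-female groups overlapped because SERTPyramid replicate 2 lay below the highest SERTfl/fl library. The log2 fold change of Lhx5 was 0.36 ± 0.17 among libraries labelled female (SE; 95% interval 0.00 to 0.72; edgeR adjusted p = 0.616) and 0.08 ± 0.17 among those labelled male (SE, edgeR adjusted p = 0.999). DESeq2 gave the labelled-female value a larger error, 0.36 ± 0.24 (SE, DESeq2 unadjusted p = 0.125). With RLE scaling edgeR gave 0.36 ± 0.17 (SE, unadjusted p = 0.0480). Leaving out 1 library put this value between 0.283 and 0.475. The other settings, among them that without SERTfl/fl replicate 1, gave 0.311 to 0.366. The averaged value was 0.22 ± 0.12 (SE; 95% interval -0.03 to 0.47; edgeR adjusted p = 0.758), with 5 of 6 SERTPyramid libraries above the SERTfl/fl median, and 0.22 ± 0.14 (SE, edgeR adjusted p = 0.677) without SERTfl/fl replicate 1 of both labelled sexes. It was the largest averaged difference of the 8 genes, and the interaction with labelled sex was 0.29 ± 0.24 (SE, edgeR adjusted p = 0.999).

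Lhx1 had 69, 35 and 56 counts in SERTPyramid libraries labelled female, against 61, 59 and 36 counts in SERTfl/fl libraries labelled female. Labelled-male libraries had 54, 51 and 65 Lhx1 counts in SERTPyramid, against 39, 67 and 57 counts in SERTfl/fl. A single low library in each labelled-female group, SERTPyramid replicate 2 and SERTfl/fl replicate 3, set the range, and the groups overlapped in both labelled sexes. The averaged log2 fold change was 0.01 ± 0.15 (SE; 95% interval -0.31 to 0.32; edgeR adjusted p = 0.996), which is a fold between 0.809 and 1.25. Counting error alone gives a coefficient of variation of 13.95% for Lhx1 and 14.4% for Lhx5, and the 12 libraries varied by 16.6% and 12.7%. Counting error is thus a large part of the spread of both genes, and the edgeR fit gave a biological coefficient of variation of 12.9% for Lhx1 and 7.09% for Lhx5.

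Ndnf encodes a secreted neuron-derived factor, found in Cajal-Retzius cells and in neurogliaform interneurons (chromosome 6, 65671590 to 65712326, plus strand). Ndnf had 70.7, 61.4 and 64.6 CPM in SERTPyramid libraries labelled female, against 71.3, 69.6 and 65.2 CPM in SERTfl/fl libraries labelled female. In the labelled-male groups it had 72.0, 72.8 and 57.8 CPM in SERTPyramid, against 60.1, 70.2 and 68.7 CPM in SERTfl/fl. The groups overlapped in both labelled sexes, and a single library of each labelled-male group, SERTPyramid replicate 3 and SERTfl/fl replicate 1, stood below the others of its group. The averaged log2 fold change was -0.02 ± 0.06 (SE; 95% interval -0.15 to 0.11; edgeR adjusted p = 0.963), and -0.04 ± 0.06 (SE, edgeR adjusted p = 0.900) without SERTfl/fl replicate 1 of both labelled sexes.

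The receptor genes had coefficients of variation over 12 libraries of 4.03% for Vldlr and 4.43% for Lrp8, close to the median of 4.75% over the 4356 genes tested with a mean of 50 to 500 CPM. Vldlr (chromosome 19, 27216484 to 27254231, plus strand) had 106, 102 and 103 CPM in SERTPyramid libraries labelled female, against 105, 102.5 and 107 CPM in SERTfl/fl libraries labelled female. In libraries labelled male, Vldlr had 107, 104 and 93.6 CPM in SERTPyramid, against 101, 111 and 106 CPM in SERTfl/fl. Both pairs of groups overlapped, and SERTPyramid replicate 3 labelled male was the lowest. Its averaged log2 fold change was -0.04 ± 0.04 (SE; 95% interval -0.11 to 0.04; edgeR adjusted p = 0.849).

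Lrp8 (chromosome 4, 107802261 to 107876840, plus strand), whose product ApoER2 is also a postsynaptic protein, had 233, 228 and 218 CPM in SERTPyramid libraries labelled female, against 240.5, 228.5 and 237 CPM in SERTfl/fl libraries labelled female. Labelled-male libraries had 234, 245 and 211 CPM of Lrp8 in SERTPyramid, against 221, 233 and 242 CPM in SERTfl/fl. Both pairs of groups overlapped, and SERTPyramid replicate 3 labelled male was again the lowest. The averaged log2 fold change of Lrp8 was -0.04 ± 0.04 (SE; 95% interval -0.12 to 0.05; edgeR adjusted p = 0.875). Without SERTfl/fl replicate 1 of both labelled sexes, Vldlr was at -0.05 and Lrp8 at -0.04 on the log2 scale.

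Dab1 encodes the adaptor (chromosome 4, 103619359 to 104744844, plus strand) and had the smallest coefficient of variation of the 8 genes, 3.76% over 12 libraries. Dab1 had 172, 169 and 169 CPM in SERTPyramid libraries labelled female, against 186, 175.5 and 186 CPM in SERTfl/fl libraries labelled female. Labelled-male libraries had 174, 182 and 165 CPM in SERTPyramid, against 175, 177 and 178 CPM in SERTfl/fl. The labelled-female groups did not overlap, SERTPyramid being lower, where 18.9% of all genes tested had groups that did not overlap and 9.38% did so with SERTPyramid lower. The labelled-male groups overlapped.

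The log2 fold change of Dab1 was -0.10 ± 0.05 among libraries labelled female (SE; 95% interval -0.20 to -0.01; edgeR adjusted p = 0.593) and -0.02 ± 0.05 among those labelled male (SE, edgeR adjusted p = 0.999). Averaged over labelled sex it was -0.06 ± 0.03 (SE; 95% interval -0.13 to 0.00; edgeR adjusted p = 0.756), with 1 of 6 SERTPyramid libraries above the SERTfl/fl median. The interaction with labelled sex was -0.08 ± 0.06 (SE, edgeR adjusted p = 0.999), so a difference between the labelled sexes was not shown. Without SERTfl/fl replicate 1 the labelled-female value was -0.08 ± 0.05 (SE, edgeR adjusted p = 0.841).

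Most markers of hippocampal excitatory neurons also had fold changes below 0 among libraries labelled female. Their summed level was 2705 to 2801 CPM in SERTPyramid and 2845 to 3154 CPM in SERTfl/fl libraries, without overlap. Taken singly, 18.9% of all genes tested had groups without overlap in this comparison, 9.38% with SERTPyramid lower. Below 0 lay 8 of 10, with a median of -0.07 against -0.0004 over all genes. The 3154 CPM belonged to SERTfl/fl replicate 1, and the other SERTfl/fl libraries had 2845 and 2858 CPM. At an unadjusted p under 0.05, 3 of 10 were lower and 0 higher, where 8.04% of all genes passed in either direction. They were Prox1, a granule cell transcription factor gene, at -0.25 ± 0.08, C1ql2, a gene of dentate granule cells, at -0.33 ± 0.10, and Neurod2, a neuronal transcription factor gene, at -0.12 ± 0.05 (log2 fold change ± SE, edgeR adjusted p = 0.530, 0.530 and 0.588). Among libraries labelled male 6 of 10 lay above 0, with C1ql2 at 0.42 ± 0.10 and Prox1 at 0.03 ± 0.08. Neurod2 was at -0.07 ± 0.05 there (log2 fold change ± SE, edgeR adjusted p = 0.999 for each of these genes). The interaction of C1ql2 with labelled sex was -0.75 ± 0.14 (SE, edgeR adjusted p = 0.585). The part of these markers in the Dab1 values was not tested.

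**Figure D3:**
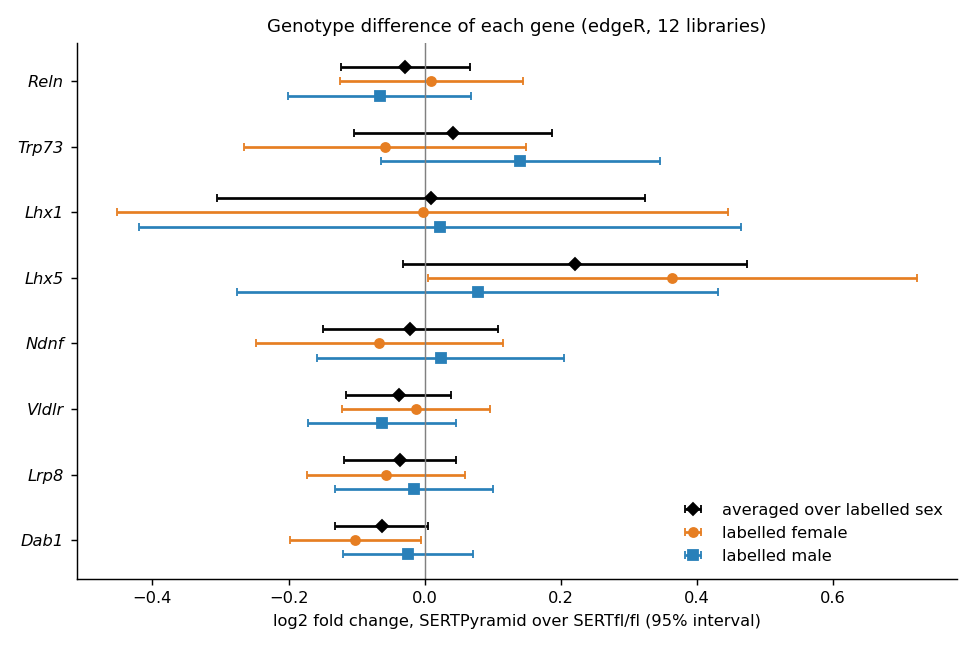
Log2 fold change of each gene, SERTPyramid over SERTfl/fl, with its 95% interval from edgeR on 12 libraries, averaged over labelled sex (black) and within each labelled sex (orange and blue). The averaged intervals of Reln, Vldlr, Lrp8 and Dab1 stay between -0.13 and 0.07, while those of Lhx1 and Lhx5 reach from -0.31 to 0.47.

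Proportions within the pathway were compared next. The size of each ratio depends on the merged exon lengths. The ratio of Lrp8 to Vldlr per kilobase was 2.13 ± 0.0768 in SERTPyramid and 2.13 ± 0.0649 in SERTfl/fl libraries (SD, n = 6 each; 2-sided exact permutation p = 0.974). The ratio of Reln to Dab1 was 0.895 ± 0.0428 in SERTPyramid and 0.874 ± 0.0509 in SERTfl/fl libraries (SD, n = 6 each; exact permutation p = 0.442). The ratio of Lhx1 to Lhx5 was 0.668 ± 0.0781 in SERTPyramid and 0.774 ± 0.133 in SERTfl/fl libraries (SD, n = 6 each; exact permutation p = 0.117). With 6 against 6 libraries the smallest p these tests can give is 0.00217, and none of the 3 tests reached 0.05.

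The wider pathway, in lists chosen with earlier results of these data known, held no gene at an adjusted p under 0.05 in the averaged contrast by edgeR. Downstream of Dab1, 27 of 27 listed genes were tested, 21 lay below 0 and 6 above, and the median log2 fold change was -0.04 against 0.00 over all genes. At an unadjusted p under 0.05, 3 were lower and 0 higher, where 2.56% of all genes were lower and 3.94% higher. They were Cul5, the cullin that carries phosphorylated Dab1 to degradation, at -0.10 ± 0.04, Rapgef1, which encodes an activator of Rap1, at -0.09 ± 0.04, and Pik3r1, a regulatory subunit of PI3-kinase, at -0.09 ± 0.04 (log2 fold change ± SE, edgeR adjusted p = 0.756 each). Gsk3b, which encodes a kinase that phosphorylates tau, was at -0.09 ± 0.04 (SE, edgeR adjusted p = 0.756). Cul5 averaged 51.6 ± 2.17 CPM in SERTPyramid and 55.3 ± 1.98 CPM in SERTfl/fl libraries (SD, n = 6 each).

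Among 15 genes of reelin processing and alternative receptor ligands, 8 lay above 0 and 7 below, with a median of 0.01. Apoe, which encodes a lipoprotein that also binds these receptors, averaged 1268 ± 24.6 CPM in SERTPyramid and 1185 ± 49.5 CPM in SERTfl/fl libraries (SD, n = 6 each). Its log2 fold change was 0.10 ± 0.03 (SE, edgeR adjusted p = 0.756). No other gene of the list reached an unadjusted p under 0.05, and that of Apoe was 0.00765 by edgeR. Furin, a protease gene, was at -0.06 ± 0.03, Itgb1, an integrin gene, at -0.05 ± 0.03, and Plat, which encodes tissue plasminogen activator, a protease that cleaves reelin, at 0.05 ± 0.03 (log2 fold change ± SE, edgeR adjusted p = 0.775, 0.796 and 0.809).

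All 10 further genes that Cajal-Retzius cells express were tested; 6 lay above 0 and 4 below, with a median of 0.01, and 0 reached an unadjusted p under 0.05. Their summed level was 302 to 341 CPM in SERTPyramid and 308 to 340 CPM in SERTfl/fl libraries. The smallest p values of the list belonged to Ebf1, at -0.19 ± 0.11, and Emx2, at -0.05 ± 0.04, both transcription factor genes (log2 fold change ± SE, edgeR adjusted p = 0.766 and 0.826). Nhlh2 was at -0.06 ± 0.07 and Ebf3 at 0.14 ± 0.17 (log2 fold change ± SE, edgeR adjusted p = 0.875 and 0.897), again transcription factor genes. Most of these genes are also expressed by other hippocampal cells.

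**Figure D4:**
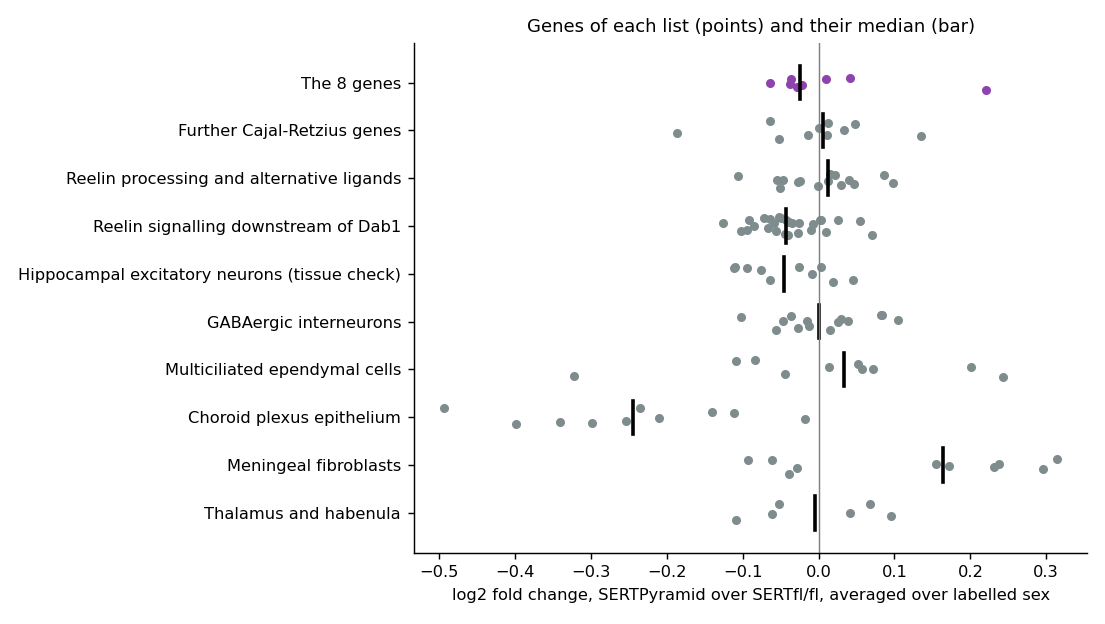
Log2 fold change of each gene, SERTPyramid over SERTfl/fl, averaged over labelled sex, for the 8 genes, 3 lists of related genes and marker lists of other cells; points are genes and bars list medians. Downstream of Dab1 the median is -0.04, all 10 choroid plexus genes lie below 0, and 6 of 10 meningeal fibroblast genes lie above 0.

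Markers of other cells that make the same transcripts or lie beside Cajal-Retzius cells were measured in the same libraries. For GABAergic interneurons, which express Reln and Ndnf, 14 of 14 genes were tested, 7 lay on each side of 0, and the summed level was 666 to 719 CPM in SERTPyramid and 655 to 753 CPM in SERTfl/fl libraries. Multiciliated ependymal cells, which express Trp73, had all 3 defining genes present and a summed level of 28.5 to 72.5 CPM in SERTPyramid and 37.6 to 68.4 CPM in SERTfl/fl libraries, with 6 of 10 genes above 0. For thalamus and habenula 6 of 8 genes were tested, 3 on each side of 0, with a summed level of 174 to 190 CPM in SERTPyramid and 176 to 195 CPM in SERTfl/fl libraries; the defining gene Gbx2 was too low to be tested.

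Choroid plexus and meninges border the dissected tissue. The 10 choroid plexus genes summed to 31.9 to 2502 CPM in SERTPyramid and 989 to 1852 CPM in SERTfl/fl libraries, with 10 of 10 below 0 in the averaged contrast and 0 at an unadjusted p under 0.05. SERTPyramid held both extremes, the lowest in replicate 3 labelled female and the highest in replicate 1 labelled male, and 10 of 10 genes lay below 0 among libraries labelled female but 6 of 10 among those labelled male. Meningeal fibroblast genes summed to 276 to 368 CPM in SERTPyramid and 270 to 307 CPM in SERTfl/fl libraries. Of these 10 genes, 4 were higher and 0 lower at an unadjusted p under 0.05, where 3.94% of all genes were higher and 2.56% lower. Besides Col1a1 they were Col3a1, a collagen III chain gene, at 0.24 ± 0.10, Col1a2, a collagen I chain gene, at 0.23 ± 0.10, and Slc22a6 at 0.30 ± 0.13 (log2 fold change ± SE, edgeR adjusted p = 0.756 each). The 3 defining genes split: Col1a1, a collagen I chain gene, was at 0.31 ± 0.09, Dcn at -0.04 ± 0.07 and Lum at -0.09 ± 0.13 (log2 fold change ± SE, edgeR adjusted p = 0.756, 0.931 and 0.906). The part of these cells in the values of the 8 genes was not tested.

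Whether genes that mark Cajal-Retzius cells go up and down together between pools was examined over the 10 pairs of Reln, Trp73, Lhx1, Lhx5 and Ndnf. Reln and Ndnf did so across 12 libraries, with Pearson r = 0.758 (permutation p = 0.00451, adjusted over 10 pairs 0.0451) and Spearman rho = 0.629 (permutation p = 0.0324, adjusted 0.324). After leaving out the 2 libraries farthest from the Reln median, r was 0.657 and its adjusted p 0.419, so the call was lost. Leaving out 1 library at a time gave r of 0.645 to 0.920, and the adjusted p was above 0.05 in 11 of these 12 cases. Without SERTfl/fl replicate 1 of both labelled sexes r was 0.722 (n = 10). Centred on group means, r was 0.853 with an adjusted p of 0.0040. The permutations did not allow for the group means removed, so this p is likely too small. Within labelled sexes r was 0.823 among libraries labelled female and 0.748 among those labelled male (n = 6 each). None of the other 9 pairs reached an adjusted p of 0.05 in the uncentred values. Lhx1 and Lhx5 had r = 0.539 (permutation p = 0.0691, adjusted 0.346, n = 12). With each library centred on its group mean, r was 0.762 with an adjusted p of 0.0177. That p is likely too small for the same reason, and no call is drawn from it.

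Reln and Trp73 had r = -0.248 across 12 libraries (permutation p = 0.436, adjusted 0.623; rho = -0.273, permutation p = 0.388), but the sign differed between the labelled sexes. Among libraries labelled female r was 0.923 (exact permutation p = 0.00833) and rho 0.943, and among those labelled male r was -0.858 (exact permutation p = 0.0139) and rho -0.943 (n = 6 each). Adjusted over 20 such values the p-values were 0.0833 and 0.0926, which miss the threshold. Without SERTfl/fl replicate 1, r was 0.940 among libraries labelled female and -0.849 among those labelled male (n = 5 each), and without the 2 libraries farthest from the Reln median it was 0.731 and -0.656. The difference between the labelled sexes in this relation was not tested. Trp73 and the summed multiciliated genes had r = 0.447 (permutation p = 0.146, n = 12), and Reln and the summed interneuron genes r = -0.0152 (permutation p = 0.963, n = 12), with adjusted p-values of 0.230 and 0.963 over a family of 11.

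**Figure D5:**
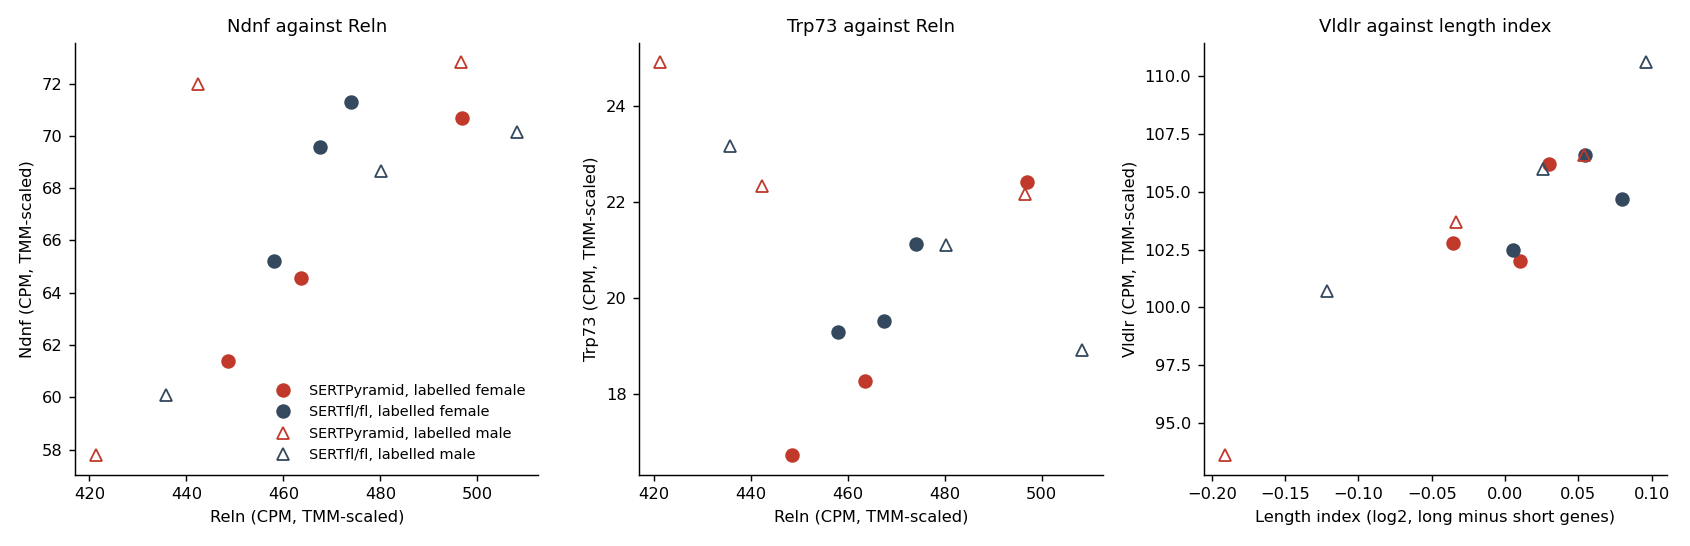
Ndnf against Reln and Trp73 against Reln, in TMM-scaled CPM, and Vldlr in TMM-scaled CPM against the length index (log2); each point is a library, red for SERTPyramid and blue-grey for SERTfl/fl, filled circles labelled female and open triangles labelled male. Ndnf goes up with Reln (r = 0.758), Trp73 goes up with Reln in the circles and down in the triangles, and Vldlr goes up with the index (r = 0.911).

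Genes with long exon sequence, merged over all annotated transcripts, moved as a class between these libraries, and several of the 8 genes are among them. An index, chosen after the data were seen, was the median deviation of 1459 genes with at least 10 kb of exon minus that of 1779 genes with at most 2 kb. It ran from -0.19 in SERTPyramid replicate 3 labelled male to 0.10 in SERTfl/fl replicate 2 labelled male (log2). Its mean was -0.03 ± 0.09 in SERTPyramid and 0.02 ± 0.08 in SERTfl/fl libraries (SD, n = 6 each; 2-sided exact permutation p = 0.335), a difference of -0.05 beside the median of -0.04 downstream of Dab1, and its part in that list was not tested. Vldlr, Ndnf, Lrp8 and Reln have 10 kb of exon or more, and genes of that class tend to follow the index by construction. The share of other long genes with as large an r was not computed, so the p-values do not set these genes apart. Vldlr followed the index with r = 0.911 and rho = 0.860 (permutation p = 5e-05, adjusted over 11 relations 0.00055, n = 12). Its r was 0.760 without the 2 most extreme libraries, 0.650 among libraries labelled female and 0.973 among those labelled male (n = 6 each).

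Ndnf and Lrp8 had r = 0.747 and 0.733 with the index (permutation p = 0.00545 and 0.00693, adjusted 0.0254 each; rho = 0.559 and 0.587; n = 12), but 0.247 and 0.313 without the 2 most extreme libraries. Within libraries labelled female r was 0.474 for Ndnf and 0.989 for Lrp8, and within those labelled male 0.865 and 0.750 (n = 6 each). The 2 most extreme libraries are both labelled male. In the other libraries labelled male, Lrp8 was at 233, 234, 242 and 245 CPM where the index was 0.096, 0.054, 0.026 and -0.034, the opposite order. The relation of Lrp8 outside the extreme libraries was thus seen only among those labelled female. Dab1 had r = 0.589 and rho = 0.559 (permutation p = 0.0427, adjusted 0.0939; n = 12), 0.416 without the 2 most extreme libraries and 0.852 among libraries labelled female (n = 6), where its genotype groups did not overlap. Trp73 had r = -0.510 (permutation p = 0.0921, adjusted 0.169; n = 12), with 0.525 among libraries labelled female and -0.882 among those labelled male (n = 6 each). Reln, with the longest exon sequence of the 8 genes at 23.7 kb, had r = 0.641 (permutation p = 0.0228, adjusted 0.0628; n = 12) and 0.109 without the 2 most extreme libraries. The part of this length difference in the values of Dab1 and in the relations of Reln with Ndnf and Trp73 was not tested.

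Protein-coding genes whose log2 CPM followed each gene closely over the 12 libraries, among the 3 with the largest r, are given as a description, chosen from 12582 candidates. For Reln they were Fn1, the fibronectin gene, at r = 0.949, Hmcn1, an extracellular matrix gene, at 0.908, and Ankfy1 at 0.904. For Ndnf they were Slc41a1, a magnesium transporter gene, at 0.943, and Specc1 at 0.912. For Trp73 they were Nudt10 at 0.917, Naa80 at 0.912 and Smim19 at 0.895, for Lhx1 BC048507 at 0.859, Acvr1c at 0.827 and AU021092 at 0.826, and for Lhx5 Psmg4 at 0.915, Cdpf1 at 0.841 and Ppil1 at 0.838. Vldlr was close to Bptf at 0.955, Herc2 at 0.947 and Ptar1 at 0.943, Lrp8 to Msi2 at 0.935 and Lama4, a laminin chain gene, at 0.934, and Dab1 to Syncrip at 0.928, Gphn, the gephyrin gene, at 0.925 and Scg3 at 0.914. None of the 8 genes was among the 3 closest to another of them, and the libraries share the differences by exon length given above.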

How the data were processed

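RNA of dorsal hippocampus was sequenced in 12 libraries made with version 2 of the TruSeq RNA kit (250 ng input), per the labels' protocols; this kit keeps no strand information. The authors deposited raw counts of reads per Ensembl gene, on build mm10 per the submitters' processing notes; no source used here names the aligner, counting settings or annotation. The table held 0 columns that could not be assigned to a sample and 0 rows that name no gene.

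From these counts, edgeR 4.0.16 (R 4.3.3) kept 17631 genes by filterByExpr, scaled them by TMM (factors 0.983 to 1.02) and fitted all 12 libraries in 4 groups with the robust quasi-likelihood model. Fold changes are SERTPyramid over SERTfl/fl, with Benjamini-Hochberg adjustment over all genes tested and a threshold of 0.05. CPM are TMM-scaled. Exon lengths and coordinates come from GENCODE M21 (GRCm38), which held 52487 of the gene identifiers, and lengths count the merged exons of all transcripts of a gene. Correlations use log2 CPM (prior count 2) and 100000 permutations, or all 720 orderings within a labelled sex. Limits from a count of 0 cover counting error only.

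The 8 genes and all lists were chosen with earlier results of these data known. Named were all 8 genes, up to 4 genes of each list of related genes with the smallest unadjusted p in the averaged contrast, and for each of the 8 genes the 3 protein-coding genes with the largest r among those whose mean log2 CPM was 1 or more; 2 genes that this last rule takes are not reported here. Of the marker lists, genes named by values include Dcn and Lum, taken as defining markers.

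Alternatives were DESeq2 1.42.0, limma 3.58.1 voom with quality weights, RLE scaling, no filter, a filter at 1 CPM (6 libraries), fits of the compared groups alone, a replicate block, leaving out each library, and, added after the data were seen, leaving out SERTfl/fl replicate 1 of both labelled sexes. Libraries of a group differed by more than sampling noise (chi-square over degrees of freedom 2.52 to 13.8).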

Additional observations from a re-analysis of the deposited data

How the results depend on the processing

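No alternative called any of the 8 genes: over 32 fold changes and 20 other settings, 624 values in all, the smallest adjusted p was 0.209, for Dab1 among libraries labelled female with the compared groups alone. DESeq2 gave no adjusted p for Lhx1 and Lhx5 among libraries labelled female. The sign was kept in every setting by 17 of the 32. Under settings other than leaving out 1 library, 10 values reversed. With limma voom these were Lhx1 averaged (-0.0189) and Reln among libraries labelled female (-0.0009), and among libraries labelled male Lhx1 (-0.0028) and Ndnf (-0.0283). Without SERTfl/fl replicate 1 of both labelled sexes they were Lhx1 among libraries labelled female (0.13) and labelled male (-0.05), Ndnf among libraries labelled male (-0.0380), and the interactions of Lhx1 (0.19), Ndnf (0.0017) and Lrp8 (0.0090). No reversed result had a fitted log2 fold change beyond 0.0903 in size, and the cause was not tested. Leaving out 1 library reversed 14 results. Their ranges, and that of the Ndnf interaction, over these fits and the fit without both SERTfl/fl replicate 1 libraries follow, as log2 fold changes. Averaged over labelled sex they were -0.0224 to 0.1002 for Trp73, -0.0879 to 0.0941 for Lhx1 and -0.0509 to 0.0292 for Ndnf. Among libraries labelled female they were -0.0292 to 0.0421 for Reln, -0.187 to 0.0279 for Trp73, -0.200 to 0.165 for Lhx1 and -0.0272 to 0.0031 for Vldlr. Among libraries labelled male they were -0.0775 to 0.107 for Lhx1, -0.0380 to 0.124 for Ndnf, -0.0624 to 0.0431 for Lrp8 and -0.0578 to 0.0119 for Dab1. For the interaction they were -0.224 to 0.187 for Lhx1, -0.191 to 0.0017 for Ndnf, -0.0040 to 0.0894 for Vldlr and -0.0998 to 0.0090 for Lrp8.

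The number of genes called among all genes, 0 in each contrast by edgeR, was 66 averaged, 103 among libraries labelled female, 5 among those labelled male and 14 for the interaction with no filter on low counts. DESeq2 called 1 among libraries labelled female and 1 for the interaction, and 415 were called when labelled-female libraries were fitted alone. Leaving out 1 library gave 0 to 144 averaged and 0 to 2 among libraries labelled female, the highest of both without SERTPyramid replicate 2 labelled male.

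Same-numbered libraries of different groups were treated as unpaired. Of 18 such pairs 2 had correlated deviations over 0.1 (range -0.225 to 0.234, against -0.254 to 0.194 in 36 other pairs). The value of 0.234 belonged to SERTPyramid replicate 1 of both labelled sexes. Whether same-numbered libraries shared litters or batches was not tested. The replicate block called 0 genes in all 4 contrasts and left the labelled-female difference of Dab1 at -0.10.

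The correlation of Reln and Ndnf was 0.853 centred on group means, 0.720 (adjusted p = 0.0862) with CPM by library totals, 0.657 without the 2 libraries farthest from the Reln median and 0.645 to 0.920 leaving out 1 library. Lhx1 and Lhx5 reached 0.762 centred on group means, but -0.121 without the 2 farthest libraries. Without those, Reln and Trp73 were at 0.205, Trp73 and Ndnf at 0.0990 and Lhx5 and Ndnf at 0.0566, and Lhx5 and Ndnf were at 0.224 centred on group means. Leaving out 1 library gave -0.466 to 0.0449 for Reln and Trp73, -0.0854 to 0.205 for Reln and Lhx5, -0.318 to 0.382 for Trp73 and Ndnf and -0.110 to 0.136 for Lhx5 and Ndnf.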
